A study of Mus musculus with 12 samples.

Results

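The mouse colon cancer line MC38 was edited to carry the A159V substitution in both copies of Rac1, and tumor cells grown from it were compared with WT tumor cells in mice given control IgG, that is, without checkpoint blockade. The comparison used 6 of the 12 samples of the study, picked by their genotype and treatment labels: A159V IgG tumors 1, 2 and 5 and WT IgG tumors 1, 2 and 4. The other 6 samples came from mice given anti-PD1 and served here for the shared estimate of spread and for a side-by-side view of the genotype difference. All hosts were C57BL/6 mice, 6 to 8 weeks old and of either sex, that received the cells under the skin in Matrigel. Mice of the IgG groups received 100 μg of the isotype control at 3-day intervals, with the first dose on day 3. Their tumors were collected on day 13. Tumor cells were enriched from the digested tumors with a magnetic kit before polyA-selected RNA was sequenced. A159V cells were a homozygous knock-in line expanded from 1 sorted cell, clone 9 unless stated otherwise in the study, and no clone is named for WT. The mutation and any other difference between that clone and the WT cells therefore cannot be told apart in these samples.

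Rac1 is a small GTPase that switches between a GDP-bound resting form and a GTP-bound signaling form. Guanine nucleotide exchange factors (GEFs) load GTP, GTPase-activating proteins (GAPs) end the signal, and GDP dissociation inhibitors (GDIs) keep the protein in the cytosol. GTP-bound Rac1 engages the WAVE complex and PAK kinases, which reshape the actin cytoskeleton beneath the membrane, and actin state in turn feeds the transcriptional coactivators MRTF and YAP.

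Each of the 6 IgG libraries held between 15770884 and 21949942 counts. The A159V IgG libraries had 20199005, 21949942 and 18470322, and the WT IgG libraries 19655947, 15770884 and 19032609. A gene with 0 counts could have had up to 3, which corresponds to 0.137 to 0.19 CPM (counts scaled to library totals) in these 6 libraries and covers counting error only. Genes with at least 1 count numbered 17724, 17940 and 18232 in A159V IgG and 18851, 18623 and 19272 in WT IgG, so every A159V library detected fewer genes than every WT library. Across genes, which are not independent replicates, Pearson's r of log2 CPM was 0.992 between A159V IgG 1 and 2 but 0.972 and 0.973 between each of these and A159V IgG 5. Among WT IgG tumors, r was 0.985 between 2 and 4 and 0.975 and 0.964 between each of these and WT IgG 1. A159V IgG 5 and WT IgG 1 thus stood somewhat apart from their groups. Mitochondrial transcripts took 2.16%, 2.11% and 0.832% of counts in A159V IgG and 4.7%, 4.01% and 4.2% in WT IgG, with no overlap and the lowest share in A159V IgG 5. The 10 most counted genes took 4.54%, 4.37% and 4.57% in A159V IgG against 6.66%, 5.98% and 5.83% in WT IgG.

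Markers of cells other than tumor cells were also detected. Summed over 10 fibroblast markers, led in CPM by Col3a1, levels were 258, 301 and 233 CPM in A159V IgG and 1233, 560 and 944 CPM in WT IgG. The 3 WT tumors lay above the 3 A159V tumors, and WT IgG 1 was the highest. The 8 pan-leukocyte markers, led by Itgb2, summed to 8.14, 6.96 and 7.12 CPM in A159V IgG and 18.3, 7.28 and 23.1 CPM in WT IgG, where WT IgG 2 sat near the A159V values. Of these markers 6 fell, with a median log2 fold change of -1.49 (-2.49 under anti-PD1). T cell markers, led by Thy1, summed to 1.06, 1.58 and 0.957 CPM against 9.56, 2.75 and 4.47 CPM, and dendritic cell markers, led by Cd74, to 38.1, 43.2 and 44.5 CPM against 209, 84.8 and 83.3 CPM. The dendritic sum exceeded the pan-leukocyte sum in every IgG library, and which cells carried Cd74 was not tested. Red blood cell markers, led by Hba-a1, summed to 7.03, 6.05 and 8.98 CPM against 23.9, 14.4 and 11.5 CPM. Adipocyte markers ran the other way, 8.94, 11.7 and 12.9 CPM in A159V IgG against 4.1, 2.32 and 1.3 CPM in WT IgG, with Fabp4 leading and Lep at 0.

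Several other marker sums overlapped while single markers within them differed. Macrophage and monocyte markers, led by Cd68, summed to 63.3, 56 and 75.6 CPM in A159V IgG and 56.6, 51.4 and 43.2 CPM in WT IgG. Cd68 rose (0.81) and 3 of the 7 tested fell, with a median log2 fold change of -0.97. NK cell markers gave 22.2, 23 and 23.8 CPM against 20.9, 16.3 and 24.5 CPM, nearly all of it Eomes in A159V IgG. Eomes passed (0.46), but not with any 1 of the 6 libraries left out (0.33 to 0.48), while 3 of the 5 tested fell, with a median of -2.38 (-5.02 under anti-PD1). B cell markers, led by Cd79a and with Ms4a1 at 0, gave 13.3, 14.9 and 14.5 CPM against 15.4, 8.75 and 9.23 CPM. Endothelial markers, led by Egfl7, summed to 23.6, 19.9 and 22.4 CPM against 24.5, 20.5 and 17.6 CPM. The genotypes overlapped in each of these sums. Pericyte and smooth muscle markers, led by Pdgfrb, gave 26.5, 29.5 and 30.6 CPM against 35.4, 40.1 and 83.6 CPM, with WT IgG 4 the highest. Neutrophil (S100a8; Ly6g and Retnlg at 0), skeletal muscle (Acta1), keratinocyte (Krt10; Krt15, Krt5 and Lor at 0) and platelet markers (Itga2b) each summed to at most 21 CPM in any of the 6 libraries. In bulk samples, fewer cells of a type and less RNA per cell cannot be told apart. The part of these cells in the differences below was not tested beyond 1 fit with a pan-leukocyte covariate, the mean log2 CPM of the pan-leukocyte markers.

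The A159V IgG and WT IgG libraries also differed by transcript size. Among 898 genes with at most 1000 bases of annotated exons, the median log2 fold change (A159V IgG over WT IgG) was -0.56, and 26 genes were higher and 209 lower. Among 4111 genes with over 6000 exonic bases the median was 0.19, with 842 higher and 380 lower. The short class sat at median deviations of -0.24, -0.26 and -0.14 log2 CPM in A159V IgG and 0.60, 0.24 and 0.05 in WT IgG, so WT IgG 1 lay farthest out. Without WT IgG 1 the medians were -0.43 for the short class and 0.02 for the long class. Under anti-PD1 they were 0.06 and -0.05. After a trend on exon length was removed from each library, they were -0.05 and 0.01. Several families of short genes are given below with their length-removed medians.

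**Figure D1:**
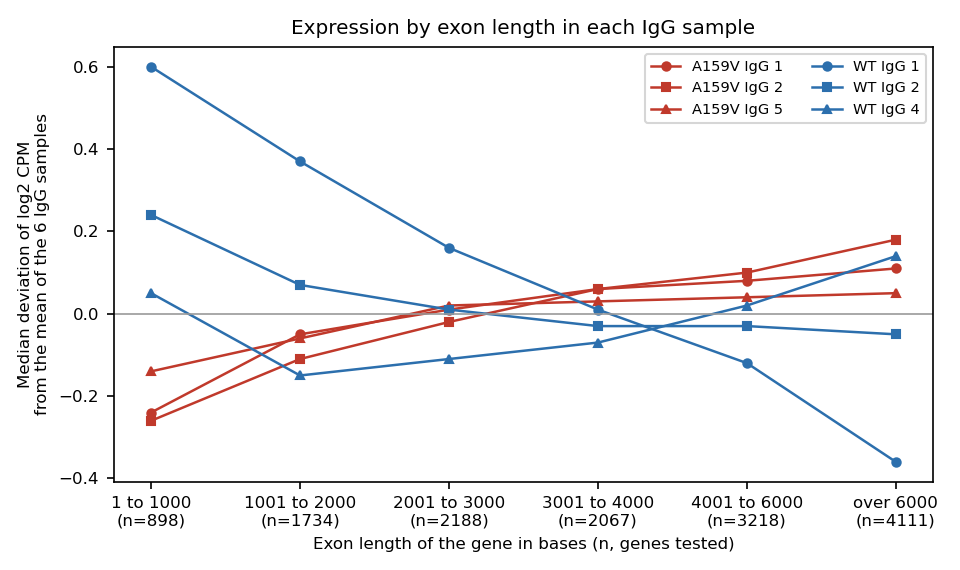
Median deviation of log2 CPM from the mean of the 6 IgG tumors, by class of exonic length, with 1 line per tumor. In the shortest class WT IgG 1 is highest at 0.60 and A159V IgG 2 lowest at -0.26, and in the longest class WT IgG 1 is lowest at -0.36.

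Of 14340 genes tested, 4010 (28.0%) were differentially expressed genes (DEGs), for which the adjusted p had to be below 0.05 and the log2 fold change beyond 0.3 either way. In A159V IgG 2231 (15.6%) were higher and 1779 (12.4%) lower. The counts in each list below are to be read beside these shares. Large differences were more often decreases: 133 genes rose and 427 fell by more than 2 log2 units. The median log2 fold change over all genes was 0.02. It was -0.12 with upper-quartile scaling, a shift that each list median below shares, and scalings also moved the balance of calls: RLE size factors gave 1680 higher and 2052 lower, and upper-quartile scaling 1337 and 2313. Fits with 1 library left out gave 2578 DEGs without A159V IgG 2 (1440 higher, 1138 lower) and 2669 without A159V IgG 1 (1136 lower), and without WT IgG 2 only 1251 were higher. The other leave-one-out fits gave up to 4717, whereas the 6 IgG libraries fitted alone gave 1399. With A159V IgG 5 and WT IgG 1 both left out there were 5363 DEGs, which kept 3186 (79.5%) of the 4010. Removal of the exon-length trend kept 84.4%. With the mean log2 CPM of the pan-leukocyte markers in each library as a covariate, 352 DEGs were found and 8.8% of the 4010 were kept. The CPM sum of these markers also tended to be lower in A159V IgG, although the groups overlapped in it. The covariate may therefore take up part of the genotype difference, which was not tested.

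Rac1 itself stood at 456, 458 and 345 CPM in A159V IgG and 511, 402 and 441 CPM in WT IgG. The groups overlapped, and the log2 fold change of -0.11 (SE 0.15, adjusted p = 0.624) did not pass.

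The 12 genes of smallest p in each direction, among protein-coding genes whose groups did not overlap, are drawn in the plot of leading genes. Separate groups were thus a condition of the choice and not a finding about these genes. Numbers in parentheses after CPM values are log2 fold changes with their standard errors. Pla2g2e, a secreted phospholipase A2, was at 16.4, 13.7 and 15.7 CPM in A159V IgG and 2.02, 3.43 and 2.16 CPM in WT IgG, a log2 fold change of 2.60 (SE 0.21, adjusted p = 1.83e-05). Rps6ka1, which encodes the ERK-activated kinase RSK1, was at 89.2, 84.7 and 95.3 CPM against 34.3, 31.4 and 31.5 CPM, a log2 fold change of 1.47 (SE 0.12, adjusted p = 2.07e-05). Replicates of Rps6ka1 were tight, while those of Pla2g2e in WT IgG ran from 2.02 to 3.43 CPM. For both genes the genotypes lay far apart. Fry, a large scaffold for NDR kinases, was at 81.5, 81.1 and 77.7 CPM against 29, 31.6 and 28.9 CPM (log2 fold change 1.43, SE 0.12). Hecw2, a HECT-type ubiquitin ligase, was low in WT IgG at 0.328, 0.184 and 0.401 CPM and reached 4.18, 4.23 and 3.61 CPM in A159V IgG.

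Igsf11, an immunoglobulin-family adhesion molecule, was at 32.7, 33.7 and 35.1 CPM in A159V IgG and 3.61, 6.79 and 3.91 CPM in WT IgG (log2 fold change 2.83, SE 0.24). Sdc1, the heparan sulfate proteoglycan syndecan-1, was at 180, 199 and 173 CPM against 81.2, 84.3 and 90.4 CPM (1.11, SE 0.11). Fetub, a secreted protease inhibitor of the cystatin family, was at 18.5, 19 and 23.4 CPM against 3.77, 4.77 and 2.11 CPM (2.52, SE 0.24). In all 3 genes the A159V tumors clustered well above the WT tumors. Gcnt2, which branches polylactosamine chains on glycoproteins and glycolipids, was at 39.2, 41.9 and 26.1 CPM against 6.67, 9.6 and 5.42 CPM, with A159V IgG 5 the lowest of its group. Gsta2, a glutathione S-transferase with near-identical paralogs among which reads may have been split, was at 92.3, 96.3 and 78.7 CPM against 29.8, 32.4 and 21.6 CPM. Cth, the last enzyme of cysteine synthesis from methionine, Lcp1, an actin-bundling protein, and Col5a3, a fibrillar collagen chain, completed the 12, with log2 fold changes of 4.05, 3.38 and 2.01.

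Among the 12 that fell, several encode surface proteins. Plet1, a GPI-anchored epithelial surface protein, was at 0.952, 1.54 and 2.18 CPM in A159V IgG and 31.8, 44.8 and 62 CPM in WT IgG (log2 fold change -4.89, SE 0.41, adjusted p = 2.53e-05). Aqp1, a water channel, was at 1.69, 1.39 and 3.4 CPM against 34.6, 32.1 and 53 CPM (-4.21, SE 0.37). Ackr3, a scavenging receptor for Cxcl12, was at 0.476, 0.192 and 0.585 CPM against 11.5, 7.22 and 10.2 CPM (-4.53, SE 0.39). Of these 3 genes Ackr3 came closest to the detection floor. Syt13, a synaptotagmin of vesicle traffic, was at 1.69, 2.79 and 1.65 CPM against 20.5, 20.1 and 27.5 CPM (-3.46, SE 0.28). Evi2a, a small membrane protein gene located within an intron of Nf1, was at 0.582, 0.528 and 0.85 CPM against 10.4, 5.75 and 11.7 CPM (-3.82, SE 0.33).

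Secreted factors were also among the genes that fell. Grem1, a secreted inhibitor of BMP ligands, had 0 counts in the 3 A159V IgG tumors and stood at 15, 30 and 24.1 CPM in WT IgG, at least 157-fold lower against a floor of 3 counts per library. Il34, a ligand of the receptor Csf1r, was at 6.61, 5.67 and 7.44 CPM against 26.3, 23.9 and 32.1 CPM (-2.06, SE 0.18, adjusted p = 3.05e-05). Apol7e, an apolipoprotein L gene with close paralogs, was at 5.02, 8.45 and 7.97 CPM against 33.5, 29.8 and 31.5 CPM (-2.14, SE 0.19). The groups were wide apart in each case. The remaining 4 genes were Ifitm1, an interferon-inducible membrane protein with close paralogs (-4.71), Pla2g7, a lipoprotein-associated phospholipase (-2.82), Ecm1, a matrix glycoprotein (-2.13), and S100a4, a calcium-binding protein of motile cells (-2.85).

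**Figure D2:**
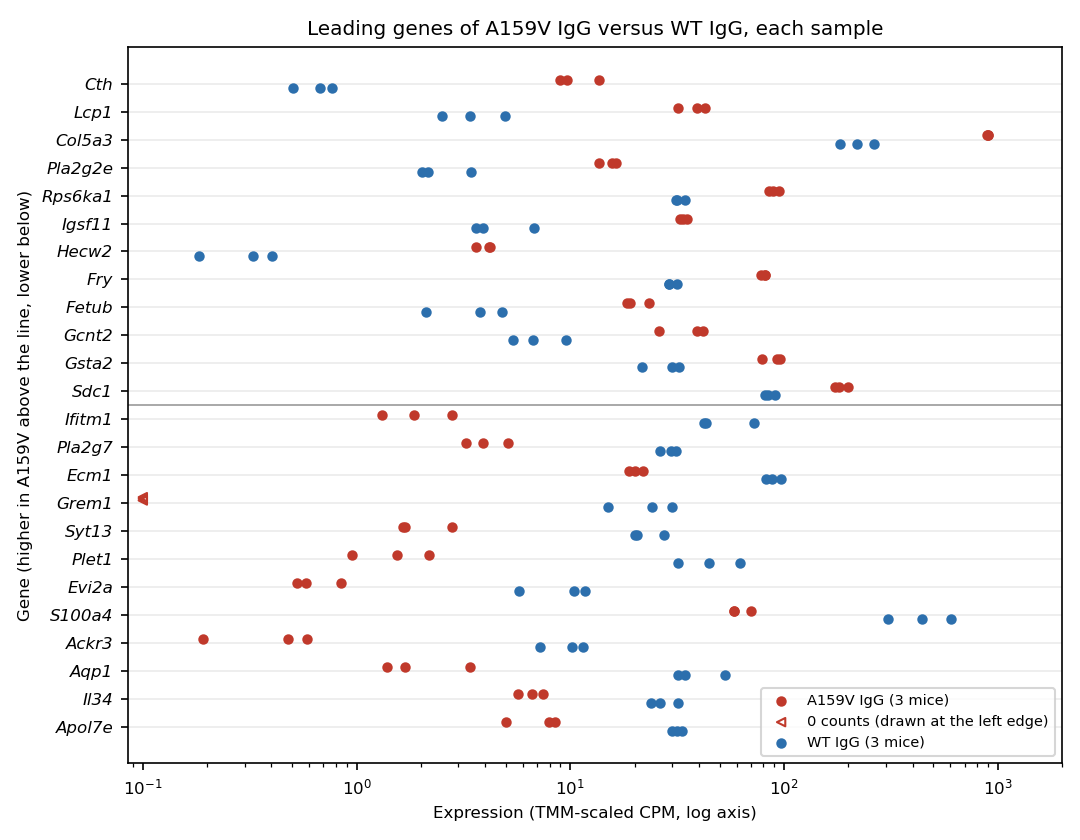
CPM on a log axis in each A159V IgG and WT IgG tumor for the 12 genes of smallest p in each direction, among protein-coding DEGs whose groups did not overlap. Each point is 1 tumor, and the 0 counts of Grem1 in A159V IgG are drawn as triangles at the left edge. By this choice, the 3 A159V tumors lie on 1 side of the 3 WT tumors for every gene drawn.

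Exchange factors for Rac and Cdc42 were more often higher than lower. Of 39 tested, 13 rose and 3 fell, with a median log2 fold change of 0.52 beside 0.02 over all genes, 0.36 after length removal and 0.23 without WT IgG 1. Vav1, an exchange factor best known from blood cells, was at 5.76, 6.44 and 7.49 CPM in A159V IgG and 1.48, 1.77 and 1.91 CPM in WT IgG (log2 fold change 1.93, SE 0.21, adjusted p = 9.53e-05). Prex1, activated by PIP3 and G protein βγ subunits, was at 4.28, 3.84 and 4.46 CPM against 0.929, 1.1 and 1.25 CPM (1.93, SE 0.24). Tiam1, a Rac-specific exchange factor of cell junctions, was at 16, 18.6 and 18.5 CPM against 4.92, 7.65 and 9.33 CPM (1.28, SE 0.19). For these 3 genes every A159V tumor exceeded every WT tumor. Fgd4, a Cdc42 exchange factor, went the other way, at 0.476, 0.528 and 0.372 CPM against 3.39, 4.16 and 6.42 CPM (-3.32, SE 0.36). Under anti-PD1 the list's median was -0.06, with 4 genes higher and 7 lower.

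Single GTPases related to Rac1 differed in both directions. Rhou, an atypical GTPase of focal adhesions, was at 27.9, 27 and 27.2 CPM in A159V IgG and 14, 16.5 and 14.3 CPM in WT IgG (0.87, SE 0.12, adjusted p = 0.000342). Both close relatives of Rac1 passed, in opposite directions. Rac2, the form of blood cells, was at 8.09, 11.2 and 9.14 CPM against 4.32, 6.3 and 3.91 CPM (0.97, SE 0.22). Rac3 was at 3.49, 3.41 and 5.37 CPM against 11.1, 10.6 and 7.43 CPM (-1.25, SE 0.25), and neither pair of groups overlapped. Rhoj, a Cdc42-like GTPase of endothelium, fell (-1.04), though by -0.66 without WT IgG 4, and was not called with the replicate block (-0.59) or the 6 IgG samples alone (-1.12). The GDI of hematopoietic cells, Arhgdib, was at 42.7, 27.9 and 23.5 CPM against 12.5, 7.03 and 8.83 CPM (1.73, SE 0.24), while Arhgdig was at 0.0529, 0.096 and 0.319 CPM against 2.73, 0.979 and 2.66 CPM (-3.73, SE 0.64). For Arhgdig, A159V IgG 1 and 2 lay below the floor of 3 counts. Its log2 fold change ran from -3.34 without A159V IgG 1 to -4.78 without A159V IgG 5. Vav1, Rac2 and Arhgdib are also blood cell genes. The pan-leukocyte sums were 8.14, 6.96 and 7.12 CPM in A159V IgG and 18.3, 7.28 and 23.1 CPM in WT IgG, and 6 of the 8 markers fell. With the mean log2 CPM of these markers as a covariate Vav1 (1.96, adjusted p = 0.017) and Arhgdib (2.05, adjusted p = 0.0249) kept their calls. Rac2 (0.61, adjusted p = 0.293), Rac3 (-1.38, adjusted p = 0.0672) and Tiam1 (1.31, adjusted p = 0.0546) did not. Rhou and Arhgdig also lost theirs. Rac2 was not called with the 6 IgG samples alone either.

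Downstream of Rac1, 10 of 28 WAVE, Arp2/3 and PAK genes rose and 1 fell, with a median of 0.41 (0.27 without WT IgG 1). The one that fell was Baiap2, the IRSp53 adaptor between Rac and WAVE, at 74.8, 90.9 and 103 CPM against 264, 238 and 279 CPM (-1.54, SE 0.16, adjusted p = 7.62e-05). Of 57 actin filament regulators, 18 rose and 6 fell, with a median of 0.26 (0.15 without WT IgG 2). Vasp, which elongates filaments at the leading edge, was at 166, 164 and 168 CPM against 97.1, 114 and 105 CPM (0.66, SE 0.11). Coro1c, a coronin of branched actin turnover, rose by a similar 0.77 (SE 0.12). Tmsb4x, which sequesters actin monomers, was at 0.423, 0.432 and 0.213 CPM against 10.3, 3.49 and 6.67 CPM (-4.23, SE 0.50). Its processed copies may take reads, so this level is uncertain.

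Targets of SRF with MRTF, which respond to the pool of free actin, had 8 of 22 higher and 0 lower by edgeR, beside 3 lower at an unadjusted p under 0.05, 1 by DESeq2 and 0 by voom. Their median of 0.42 was 0.27 without A159V IgG 5. The list was led by Actg2, smooth muscle actin, at 4.97, 4.18 and 3.51 CPM against 1.69, 1.77 and 1.91 CPM (1.23, SE 0.22), and Cap1, an actin-recycling protein, at 399, 420 and 386 CPM against 243, 272 and 265 CPM (0.63, SE 0.11). Mrtfa, the coactivator itself, rose (0.64, SE 0.14). For YAP and TEAD targets 7 of 23 rose and 1 fell, with a median of 0.40 that dropped to 0.23 without A159V IgG 5, 0.19 without WT IgG 1 and 0.26 without WT IgG 2. After length removal 7 rose and 4 fell, with a median of 0.29. Wwc1, the Hippo scaffold KIBRA and itself a YAP target, was at 156, 124 and 156 CPM against 65.2, 77.7 and 63.1 CPM (1.08, SE 0.15), and Amotl2 rose by 0.81. Gadd45b, a stress sensor, fell by 1.05. The groups did not overlap for any of these genes.

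Receptor tyrosine kinases had 9 of 30 higher and 2 lower, with a median of 0.45 (0.26 without WT IgG 1, 0.27 after length removal) beside 0.00 under anti-PD1. Fgfr2, a receptor for fibroblast growth factors, was at 4.6, 6.39 and 4.3 CPM in A159V IgG and 1.42, 1.59 and 1.56 CPM in WT IgG (1.74, SE 0.25, adjusted p = 0.000531). Mst1r, the RON receptor, was at 0.793, 1.34 and 1.22 CPM against 0.273, 0.122 and 0.251 CPM (2.32, SE 0.39). Tyro3, a receptor for Gas6 and protein S, was at 69.5, 69.4 and 82.8 CPM against 43.8, 48.2 and 50.7 CPM (0.64, SE 0.12). Separation between the groups was complete for all 3 receptors.

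Growth factor ligands leaned the opposite way. Of 37 tested, 4 rose and 11 fell, with a median of -0.40. Pdgfc, a PDGF receptor ligand, was at 29.4, 28.5 and 19.2 CPM against 3.77, 9.79 and 7.38 CPM (1.88, SE 0.29, adjusted p = 0.000844). Vegfc, the lymphatic growth factor, was at 9.41, 10.9 and 6.91 CPM against 23.5, 15.4 and 28.7 CPM (-1.31, SE 0.24), and Angptl4, an inhibitor of lipoprotein lipase, fell by 1.37 (SE 0.23). Of 5 IGF binding proteins, 0 rose by edgeR (0 also at an unadjusted p under 0.05, by DESeq2 and by voom) and 2 fell. Igfbp4 was at 229, 277 and 203 CPM against 529, 571 and 526 CPM (-1.19, SE 0.21), and Igfbp6 fell by 0.51, with overlapping groups and a call that was lost without A159V IgG 1 (-0.45), A159V IgG 2 (-0.47), WT IgG 1 (-0.49) or WT IgG 2 (-0.48). The family's median of -2.51 moved to -1.22 without WT IgG 1 and to -1.49 by voom. It was -0.93 with the 6 IgG samples alone, -0.97 with at least 10 counts in every sample and -0.78 with the pan-leukocyte covariate.

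Genes at the output of ERK signaling split: 5 of 22 rose and 3 fell, with a median of -0.04 that ran from -0.19 without WT IgG 1 to 0.05 without A159V IgG 5 or WT IgG 4. Dusp6, the ERK phosphatase, was at 44.8, 59.4 and 41.8 CPM against 101, 95.9 and 114 CPM (-1.09, SE 0.18, adjusted p = 0.00104). Dusp4, a related nuclear phosphatase, moved up, at 119, 153 and 173 CPM against 45.5, 75.5 and 69.6 CPM (1.22, SE 0.20). Spry2, a feedback inhibitor of receptor signaling, was at 20.3, 19.5 and 18.7 CPM against 37.4, 34.3 and 32.8 CPM (-0.84, SE 0.14), whereas the ephrin receptor Epha2 rose by 0.91 (SE 0.17). Immediate early genes, which respond to tissue digestion as well as to growth factors, had 13 of 25 lower, with a median of -0.84. Nr4a2, an orphan nuclear receptor of this class, was at 11.3, 9.36 and 9.03 CPM against 37.6, 42.5 and 28.4 CPM. Egr2 fell further (-2.57). By edgeR none was higher, and the count was also 0 at an unadjusted p under 0.05, by DESeq2 and by voom. After length removal, however, 2 were higher and 16 lower. Under anti-PD1 16 were lower.

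The TGF-beta list had 7 of 24 genes higher and 7 lower, and its median of 0.01 carried no direction, since it turned negative with RLE and upper-quartile scaling and ran from -0.27 without WT IgG 1 to 0.24 without WT IgG 4. After length removal 3 were higher and 9 lower, with a median of -0.15. Fstl1, a secreted follistatin relative, was at 274, 391 and 232 CPM in A159V IgG and 109, 132 and 137 CPM in WT IgG (1.24, SE 0.19, adjusted p = 0.000696). Tgfbr3, the co-receptor betaglycan, was at 15.9, 11.2 and 12 CPM against 22.2, 35.6 and 41.3 CPM (-1.34, SE 0.23). Ltbp2, a latent TGF-beta binding protein of the matrix, fell by 2.46 (-1.60 without WT IgG 4). Of 17 BMP genes, 1 rose and 3 fell, with a median of 0.01 that also turned negative under both scalings (-0.16 without WT IgG 2, 0.27 without WT IgG 4) and is the same with Grem1 at its bound. The 1 that rose was Bmp1, a procollagen protease (0.69), and the BMP targets Id3 (-1.38, SE 0.30) and Id1 (-0.85, SE 0.29) fell. Id1 had overlapping groups, and its call was lost without A159V IgG 1 (-0.72), A159V IgG 2 (-0.81), WT IgG 1 (-0.69) or WT IgG 2 (-0.85).

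For Wnt targets and inhibitors 5 of 21 rose and 3 fell, and the median of 0.23 was 0.01 without WT IgG 1 and 0.02 after length removal. Tcf7, a transcription factor of the pathway, was at 33.4, 31.2 and 26.4 CPM against 12.1, 11.4 and 12.8 CPM (1.33, SE 0.15, adjusted p = 0.000102). Rnf43, a ligase that removes Wnt receptors, was at 3.23, 2.59 and 3.45 CPM against 0.546, 0.979 and 0.552 CPM (2.16, SE 0.32), and Wnt5b, a ligand, rose by 1.65. Both of the genes given by sample had nonoverlapping groups. Among 23 Notch genes 4 rose, with the glycosyltransferases Lfng (0.80) and Mfng (1.06) in front, and 1 fell. That share of increases was near the 15.6% over all genes. Of 27 p53 targets 8 rose and 7 fell, and of 39 apoptosis regulators 5 rose and 9 fell. Plk2, a stress-responsive kinase, was at 80.8, 82.3 and 110 CPM against 246, 228 and 198 CPM (-1.30, SE 0.17). Casp9, the initiator caspase of the mitochondrial route, was at 35.5, 45 and 46.1 CPM against 18.4, 22.1 and 23.4 CPM (0.99, SE 0.15), and Birc2, an inhibitor of apoptosis, fell by 0.90. Medians of the Notch, p53 and apoptosis lists were 0.06, 0.13 and -0.01, and the first 2 turned negative with upper-quartile scaling. With 1 library left out they ran from -0.09 to 0.18 (without A159V IgG 5 and WT IgG 4), 0.05 to 0.19 (WT IgG 2 and A159V IgG 2) and -0.17 to 0.01 (A159V IgG 2 and 1).

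Enzymes of the TCA cycle and glutamine use were among the lists with the largest share of increases, 17 of 31, with 1 decrease and a median of 0.46 (0.31 after length removal). Got1, the cytosolic aspartate aminotransferase, was at 227, 216 and 248 CPM in A159V IgG and 118, 127 and 107 CPM in WT IgG (0.98, SE 0.12, adjusted p = 0.000204). Ogdh, a subunit of 2-oxoglutarate dehydrogenase, was at 369, 364 and 370 CPM against 179, 210 and 222 CPM (0.85, SE 0.12). Got2, the mitochondrial aminotransferase, and Pcx, which carboxylates pyruvate to oxaloacetate, rose by 0.79 and 0.88. Every A159V value of these 4 genes exceeded every WT value. Under anti-PD1 18 genes of the list were higher, with a median of 0.39.

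Fatty acid synthesis and desaturation showed 10 of 19 genes higher, and 19 of 19 had positive fold changes, with a median of 0.52 (0.35 after length removal) beside 5 higher under anti-PD1. Dgat2, which makes triglycerides, was at 33.2, 32.2 and 32.4 CPM against 16.8, 15.8 and 11.3 CPM (1.16, SE 0.18, adjusted p = 0.000832). Scd1, the stearoyl-CoA desaturase, was at 226, 267 and 214 CPM against 106, 128 and 156 CPM (0.86, SE 0.18). Sterol synthesis and uptake had 7 of 25 higher and 0 lower by edgeR (2 at an unadjusted p under 0.05, 1 by DESeq2, 0 by voom), with a median of 0.20 that was 0.11 without A159V IgG 2, 0.08 without WT IgG 1 and 0.09 without WT IgG 2. Of 30 fatty acid oxidation and binding genes 6 rose and 4 fell, with a median of 0.15 (0.05 without WT IgG 2). Acsl1, which activates long-chain fatty acids, was at 54.1, 64 and 48.8 CPM against 22.9, 27.5 and 27.6 CPM (1.10, SE 0.14). Its relative Acsl5 was at 7.03, 8.36 and 5.15 CPM against 34.5, 18.8 and 37.6 CPM (-2.14, SE 0.33). Fabp4, a lipid carrier that is also the leading adipocyte marker here, was at 6.24, 9.56 and 10.4 CPM against 2.29, 1.84 and 0.853 CPM (2.40, SE 0.32).

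ATF4 targets had 16 of 28 higher and 3 lower (median 0.45, and 0.48 under anti-PD1), and serine, glycine and one-carbon genes 8 of 20 higher and 1 lower (median 0.35, and 0.55 under anti-PD1). Among 26 amino acid transporters 12 rose and 2 fell, with a median of 0.28 that was 0.17 without A159V IgG 5 and 0.50 without WT IgG 4. After length removal it was 0.17. Under anti-PD1 the transporters had a median of 0.05, with 5 higher and 5 lower. Slc38a3, a glutamine transporter, was at 9.78, 8.64 and 12.1 CPM in A159V IgG and 1.42, 3.24 and 1.86 CPM in WT IgG (2.23, SE 0.30, adjusted p = 0.000356). Slc7a8, the light chain LAT2, was at 1.22, 1.1 and 1.38 CPM against 0.328, 0.122 and 0.251 CPM (2.35, SE 0.39), and Slc38a1 rose by 0.86. Slc38a9, the lysosomal arginine sensor, fell, at 7.56, 7.4 and 9.09 CPM against 15.2, 19.9 and 17.1 CPM (-1.12, SE 0.16). The groups of these transporters did not overlap.

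Zinc, iron and copper transporters had 11 of 31 higher and 3 lower with a median of 0.31, led by the zinc importer Slc39a4 at 11.2, 9.65 and 6.59 CPM against 3.06, 1.65 and 2.86 CPM (1.85, SE 0.27, adjusted p = 0.000531). ABC and nucleotide transporters had 9 of 41 higher and 7 lower, with a median of 0.19 that was 0.04 without A159V IgG 5, 0.10 without WT IgG 1 and 0.33 without WT IgG 4. After length removal it was 0.09. Abcc2, an exporter of glutathione conjugates, was at 3.86, 4.75 and 4.89 CPM against 0.437, 0.612 and 0.552 CPM (3.06, SE 0.32), and Abcc4, which exports cyclic nucleotides and prostaglandins, rose by 1.21. Abcg2, the urate and drug exporter, was at 0.106, 0.048 and 0.159 CPM against 1.04, 1.35 and 2.31 CPM (-3.85, SE 0.47), and Abca1, which loads cholesterol onto apolipoprotein, fell by 3.38 (SE 0.48). Abcg2 lay at or below the floor of 3 counts in all A159V tumors. Of 27 ion pumps and acid-base transporters 8 rose and 1 fell, among them carbonic anhydrase Car12 (1.94). Potassium channels had 5 of 17 higher and 4 lower, and calcium, sodium and TRP channels 6 of 31 in each direction, with Kcnh2 (1.84), Trpa1 (2.43) and Trpv4 (1.06) among those that rose. No direction is given for the pumps and channels, whose medians of 0.09, 0.15 and 0.13 changed sign with upper-quartile scaling or with WT IgG 1 left out.

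Lysosome and autophagy genes had 13 of 37 higher and 1 lower, with a median of 0.31 beside 0.04 under anti-PD1. The median was 0.18 without A159V IgG 5 and 0.18 after length removal. Atp6v1b2, a subunit of the proton pump, was at 241, 253 and 238 CPM in A159V IgG and 126, 133 and 136 CPM in WT IgG (0.89, SE 0.11, adjusted p = 0.000194). Ctsb, the protease cathepsin B, was at 820, 838 and 799 CPM against 499, 503 and 387 CPM (0.82, SE 0.13). Lamp1 and Tfeb, a membrane protein and a transcription factor of lysosomes, rose by 0.71 and 0.84, each with separate groups. NRF2 antioxidant targets had 13 of 32 higher and 4 lower with a median of 0.29. Gsta4, which conjugates lipid peroxidation products, was at 76.8, 71.2 and 61.5 CPM against 35.8, 28.4 and 21.2 CPM (1.30, SE 0.18). Glutathione S-transferases divided into 6 of 20 higher and 6 lower: Gsta1 rose (1.99, with Gsta2 a near copy) and Gstm7 fell (-2.16), and their median of 0.08 was 0.24 after length removal, negative with upper-quartile scaling and between -0.13 without WT IgG 4 and 0.21 without WT IgG 1. Aldehyde dehydrogenases and aldo-keto reductases had 7 of 25 higher and 0 lower by edgeR (2 lower at an unadjusted p under 0.05, 1 by DESeq2, 0 by voom), led by Akr1c13 (1.41), while the median of 0.11 was negative with upper-quartile scaling, 0.05 without A159V IgG 5, 0.20 without WT IgG 2 and -0.00 without WT IgG 4. Among 21 cytochromes P450 1 rose and 2 fell (median -0.15, from -0.38 without WT IgG 1 to -0.07 without A159V IgG 1). Unfolded protein response genes had 7 of 24 higher and 1 lower, led by the chaperone Hyou1 (0.96), with a median of 0.08 (-0.06 with upper-quartile scaling, -0.05 without WT IgG 2 and 0.18 without A159V IgG 5).

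**Figure D3:**
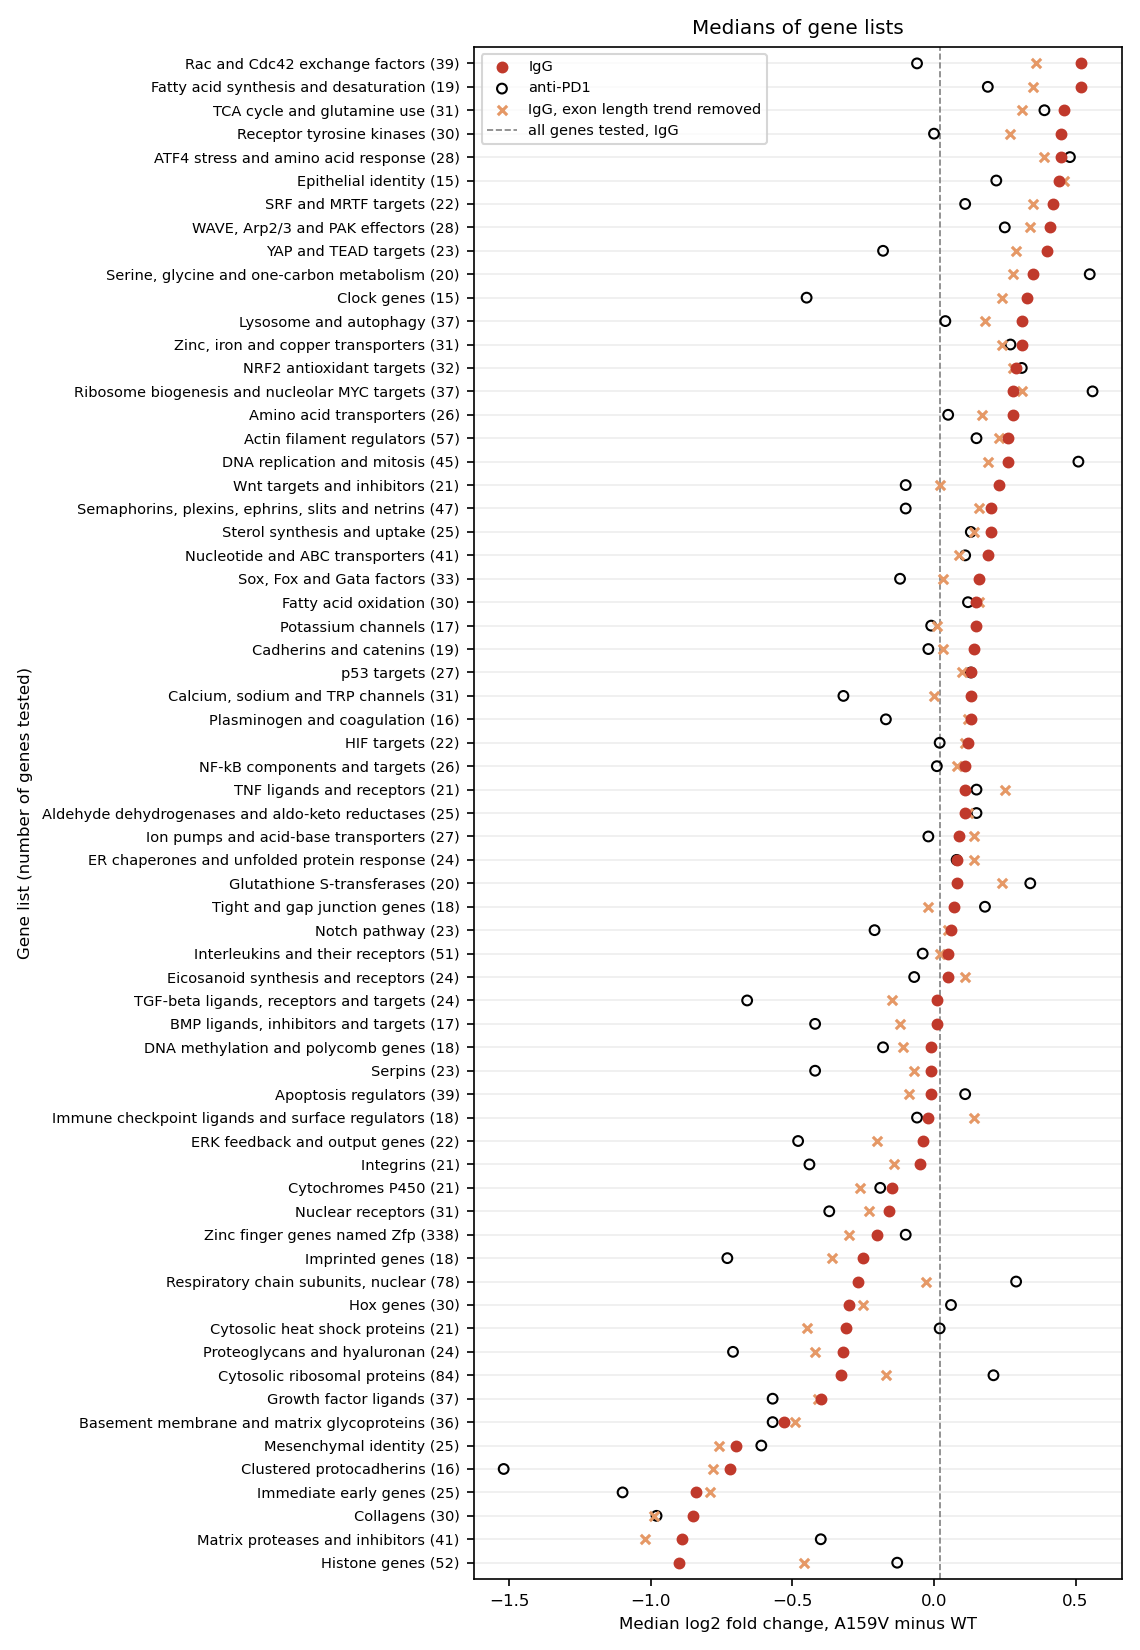
Median log2 fold change of A159V over WT for the gene lists drawn, under IgG, under IgG after removal of the exon-length trend and under anti-PD1. TCA cycle enzymes sit at 0.46 and histone genes at -0.90 under IgG, beside 0.02 over all genes tested.

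More matrix genes fell than rose, in the tumors where fibroblast markers were also lower. Collagens had 3 of 30 higher and 13 lower (median -0.85), basement membrane and matrix glycoproteins 8 of 36 and 14 (-0.53), proteoglycans 5 of 24 and 8 (-0.32), and matrix proteases with their inhibitors 7 of 41 and 19 (-0.89). The proteoglycan median ranged from -0.55 without WT IgG 2 to -0.02 without WT IgG 4. Col3a1, a fibrillar collagen and itself a fibroblast marker, was at 59.2, 51 and 59.5 CPM in A159V IgG and 474, 264 and 335 CPM in WT IgG (-2.66, SE 0.33, adjusted p = 0.000214). Mmp2, a gelatinase, was at 6.29, 9.75 and 8.72 CPM against 29.2, 31.9 and 39.7 CPM (-2.02, SE 0.21), and Timp2, its inhibitor and coactivator, at 107, 106 and 107 CPM against 221, 210 and 228 CPM (-1.04, SE 0.13). Replicates of Timp2 differed little within either group. Lum, a small leucine-rich proteoglycan, was at 1.69, 1.68 and 0.744 CPM against 11.1, 4.4 and 6.93 CPM (-2.44, SE 0.39), and Vcan, the large proteoglycan versican, fell by 2.00. Against this, Col11a1 (1.41) and Tnc, the glycoprotein tenascin C, rose, Tnc from 9.67, 10 and 19.4 CPM in WT IgG to 39.2, 66.5 and 40.9 CPM (1.90, SE 0.35). With the pan-leukocyte covariate the collagen and protease medians were -0.30 and -0.52, and the glycoprotein and proteoglycan medians 0.23 and 0.19. The glycoprotein and proteoglycan medians were also positive with at least 10 counts required in every sample. How much of these decreases came from fibroblasts was not tested.

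Mesenchymal identity genes had 1 of 25 higher and 13 lower (median -0.70, or -0.18 with the pan-leukocyte covariate). Fibroblast markers were lower in the same A159V IgG tumors, at 233 to 301 CPM against 560 to 1233 CPM, and their part in this list was not tested. Epithelial identity genes had 6 of 15 higher and 1 lower (median 0.44, or 0.29 without A159V IgG 5). Prrx1, a mesenchymal transcription factor, was at 11.5, 13.7 and 6.43 CPM against 33.5, 26.8 and 62.1 CPM (-1.95, SE 0.30, adjusted p = 0.000868). Esrp1, which directs epithelial splicing, was at 3.01, 2.55 and 2.44 CPM against 0.546, 0.918 and 0.552 CPM (1.99, SE 0.36). Cldn4, a tight junction claudin, was at 2.91, 2.35 and 5.26 CPM against 0.546, 0.367 and 0.351 CPM (3.03, SE 0.59). All 3 genes separated the genotypes. Gpa33, an intestinal surface antigen, rose by 1.69, whereas Lgals4, an intestinal galectin, fell by 2.29. Keratins had 2 of 6 higher and 1 lower (median -0.06, or 0.07 after length removal; -0.36 without A159V IgG 5 and 0.11 without A159V IgG 1), and tight and gap junction genes 3 of 18 higher and 2 lower, with a median of 0.07 that was negative with RLE and upper-quartile scaling, -0.05 without WT IgG 4 and 0.20 without WT IgG 1. For the junction genes the share of increases was near the 15.6% over all genes.

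Adhesion families were divided. Of 21 integrins 5 rose and 5 fell, with a median of -0.05 (-0.23 without A159V IgG 5 to 0.14 without WT IgG 4). Itgb4, the hemidesmosome subunit, was at 6.98, 7.54 and 9.3 CPM against 25.1, 32 and 38 CPM and fell by 2.00 (SE 0.21, adjusted p = 7.99e-05), while Itga6, its partner, was at 95.2, 134 and 93.6 CPM against 28.4, 54.4 and 42.4 CPM (1.37, SE 0.23). Thus the 2 chains of 1 laminin receptor went in opposite directions. Itgal, a leukocyte integrin chain, rose by 1.42, and by 1.22 (adjusted p = 0.0249) with the pan-leukocyte covariate. Among 19 cadherins and catenins 7 rose and 4 fell, and the median of 0.14 was -0.03 without A159V IgG 5 or WT IgG 1, 0.22 without A159V IgG 1 and 0.34 without WT IgG 4. Jup, plakoglobin, was at 36.4, 40.9 and 42.8 CPM against 15.5, 19.8 and 15.9 CPM (1.23, SE 0.16), and Pkp1, a desmosomal plakophilin, fell by 2.38. Clustered protocadherins, whose exons are shared among genes, had 1 of 16 lower (median -0.72, with -1.09 without WT IgG 1 and -0.20 without WT IgG 4), beside 8 lower under anti-PD1.

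Semaphorins, plexins, ephrins, slits and netrins, the guidance cues of axons and vessels, had 13 of 47 higher and 4 lower. Their median of 0.20 was 0.12 without A159V IgG 5, 0.10 without WT IgG 1, 0.12 without WT IgG 2 and 0.34 without WT IgG 4. Sema3g was at 18.6, 22.2 and 19.6 CPM in A159V IgG and 6.72, 6.42 and 6.47 CPM in WT IgG (1.62, SE 0.17, adjusted p = 9.13e-05). Neo1, a receptor for netrins and RGM proteins, was at 175, 189 and 176 CPM against 47.5, 76 and 80.5 CPM (1.40, SE 0.17). Sema3c was at 38.3, 40.7 and 25.2 CPM against 7.05, 14.1 and 7.38 CPM (1.87, SE 0.26). The genotypes did not overlap for these 3 genes. Under anti-PD1 10 genes of the family were higher and 11 lower.

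Of 23 serpins 5 rose and 8 fell, with a median of -0.01 (-0.15 without A159V IgG 1 to 0.12 without A159V IgG 5). Serpinf1, the secreted factor PEDF, was at 19, 13.9 and 11 CPM against 88.5, 41.7 and 80.7 CPM (-2.26, SE 0.28, adjusted p = 0.000217). Serpinb2, the inhibitor PAI-2, was at 9.04, 10.8 and 4.57 CPM against 1.58, 1.59 and 1.76 CPM (2.30, SE 0.36). Both were apart, and A159V IgG 5 was lowest of its group for Serpinb2. In the plasminogen and coagulation list 6 of 16 rose and 5 fell, with a median of 0.13 (-0.01 with upper-quartile scaling, 0.04 without WT IgG 2, 0.21 without WT IgG 4 and 0.39 without WT IgG 1). F10, coagulation factor X, was at 1.22, 1.15 and 1.33 CPM against 0.273, 0.0612 and 0.0502 CPM (3.20, SE 0.55), and F2r, the thrombin receptor, rose by 0.97. For F10, WT IgG 2 and 4 lay below the floor of 3 counts. Its log2 fold change ran from 2.80 without WT IgG 4 to 4.26 without WT IgG 1. Complement genes had 3 of 14 lower, with C4b in front (-0.81; -0.74 and not called without A159V IgG 1), and 0 higher by edgeR (3 at an unadjusted p under 0.05, 0 by DESeq2, 1 by voom).

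Interleukins and their receptors had 10 of 51 tested genes higher and 7 lower, and the median of 0.05 turned negative with upper-quartile scaling and ran from -0.02 without WT IgG 2 to 0.12 without A159V IgG 5. Il1rl1, the receptor ST2 for IL-33, was at 1361, 1232 and 679 CPM in A159V IgG and 272, 242 and 156 CPM in WT IgG (2.29, SE 0.28, adjusted p = 0.000218). Il1rn, the secreted antagonist of the IL-1 receptor, was at 3.12, 3.17 and 1.91 CPM against 0.273, 0.306 and 0.251 CPM (3.28, SE 0.40). Osm, an IL-6 family cytokine, was at 25, 19.6 and 19.6 CPM against 8.69, 6.55 and 6.17 CPM (1.58, SE 0.18). Each was higher in all A159V tumors, and for Il1rl1 and Il1rn A159V IgG 5 was the lowest of its group. TNF ligands and receptors had 7 of 21 higher and 2 lower, including the costimulatory receptor Tnfrsf9 (1.07), NF-kB genes 5 of 26 in each direction, and HIF targets 7 of 22 higher and 3 lower. Their medians of 0.11, 0.11 and 0.12 were negative with upper-quartile scaling, and with 1 library left out reached -0.03 (without A159V IgG 5), -0.02 and 0.02 (both without WT IgG 2), or 0.37 and 0.31 for TNF and HIF genes without WT IgG 4. Eicosanoid genes had 6 of 24 in each direction. Besides Pla2g2e and Pla2g7, the secreted phospholipase Pla2g5 rose (0.97) and the cytosolic Pla2g4c fell, at 2.01, 1.78 and 1.7 CPM against 5.74, 6.55 and 6.57 CPM (-1.78, SE 0.22). Checkpoint ligands and surface regulators had 6 of 18 higher and 1 lower, among them Nectin1 (1.37) and Cd80 (2.66), but 10 of 18 fold changes were negative and the median was -0.02 (-0.08 without A159V IgG 2 to 0.13 without WT IgG 4).

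In transcription factor families the share of DEGs was near or below the 28.0% over all genes. Hox genes had 2 of 30 higher and 5 lower (median -0.30, against 0.06 under anti-PD1). Hoxb5 was at 1.64, 1.44 and 3.4 CPM against 5.3, 6.24 and 8.78 CPM (-1.65, SE 0.34, adjusted p = 0.00427), and Hoxb13, the most 5′ gene of its cluster, was at 10.6, 8.36 and 9.94 CPM against 5.35, 5.75 and 3.81 CPM (0.96, SE 0.21). Both were separated, in opposite directions. Among 33 Sox, Fox and Gata factors 4 rose and 5 fell, with Gata2 higher (0.86) and Foxp2 at 0.423, 0.384 and 0.266 CPM against 2.29, 1.84 and 2.36 CPM (-2.57, SE 0.33). Nuclear receptors had 2 of 31 higher and 5 lower, clock genes 3 of 15 higher, among them Cry1 (0.64) and Cry2 (0.56, but not called at 0.42 without WT IgG 1 and 0.50 without WT IgG 2), and DNA methylation and polycomb genes 2 of 18 higher and 1 lower. By edgeR 0 clock genes were lower (2 at an unadjusted p under 0.05, 2 by DESeq2, 0 by voom). After length removal the clock list had 3 higher and 3 lower. Of 9 germline genes 3 fell and 0 rose (1 at an unadjusted p under 0.05, 0 by DESeq2, 0 by voom), while 5 of 9 fold changes were positive and the median was 0.30 (0.04 without A159V IgG 1 or WT IgG 1, 0.12 without A159V IgG 5 and 0.14 without WT IgG 2). Tex101, a sperm membrane protein, was at 0.423, 0.48 and 0.266 CPM against 4.48, 3.43 and 4.17 CPM (-3.34, SE 0.31).

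Imprinted genes had 3 of 18 higher and 7 lower (median -0.25, or -0.56 without A159V IgG 5). Phlda2, a maternally expressed growth restrainer, was at 4.39, 3.31 and 4.46 CPM in A159V IgG and 0.437, 0.428 and 0.401 CPM in WT IgG (3.24, SE 0.41, adjusted p = 0.000242). H19, a maternally expressed noncoding RNA, was at 0.264, 1.34 and 0.319 CPM against 4.37, 3.24 and 12 CPM (-3.32, SE 0.61). Both lie on chromosome 7, and neither overlapped between the groups. Plagl1 and Peg10, paternally expressed genes, had lower levels (-1.96 and -0.86).

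Zinc finger genes named Zfp, the largest list with 338 tested, had 17 higher and 43 lower (median -0.20, with -0.37 without WT IgG 1 and -0.11 without WT IgG 4). Split by location after the values were seen, 7 of 27 on chromosome 4 rose and 0 fell by edgeR (1 at an unadjusted p under 0.05, 1 by DESeq2, 0 by voom), with a median of 0.66. On chromosome 13, 8 of 32 fell and 0 rose, also 0 at an unadjusted p under 0.05, by DESeq2 and by voom, with a median of -0.58. Under anti-PD1 14 of the chromosome 4 genes were higher and 5 of the chromosome 13 genes lower. Zfp978, on chromosome 4, was at 69.1, 67 and 27.2 CPM against 18.6, 20.9 and 15.3 CPM (1.58, SE 0.28, adjusted p = 0.00177). Zfp358, on chromosome 8, was at 5.45, 6 and 4.73 CPM against 13.1, 10.6 and 14.5 CPM (-1.24, SE 0.17), and Zfp945 fell by 1.35. The groups were apart for all 3, although many of these genes have close paralogs and their reads may have been split.

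Histone, ribosomal protein and respiratory chain genes, which have short transcripts, had negative medians in A159V IgG. Histone genes had 0 of 52 higher by edgeR (0 also at an unadjusted p under 0.05, by DESeq2 and by voom) and 11 lower (4 after length removal), and 51 of 52 fold changes were negative, with a median of -0.90 that was -0.46 after length removal and -0.13 under anti-PD1, where 3 were lower. Hist2h2be, an H2B gene with a polyadenylated transcript, was at 3.07, 3.36 and 6.22 CPM against 21, 17.4 and 20.7 CPM (-2.22, SE 0.32, adjusted p = 0.000487), and the groups were apart. Cytosolic ribosomal proteins had 1 of 84 higher and 9 lower, with a median of -0.33 (-0.17 after length removal, -0.02 without WT IgG 1 and -0.55 without WT IgG 4). Nuclear-encoded respiratory chain subunits had 4 of 78 higher and 10 lower, with a median of -0.27 (-0.03 after length removal and without WT IgG 1, -0.44 without WT IgG 2 and -0.47 without WT IgG 4). In the ribosomal and nuclear-encoded lists the share of decreases was near the 12.4% over all genes, and that of increases below the 15.6%. After length removal 9 of the nuclear-encoded subunits were higher and 8 lower. Ndufs4, a complex I subunit, was at 26.9, 28.5 and 20.3 CPM against 90.4, 59.6 and 41.3 CPM (-1.34, SE 0.23). S100 proteins had 4 of 11 lower (median -0.45, or -0.38 after length removal), and neither of 2 metallothioneins, Mt1 among them, passed (median -0.27, or 0.14 after length removal and 0.07 without WT IgG 1). Reads of histone and ribosomal protein genes may be shared with copies and pseudogenes, so their levels are uncertain.

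The 13 mitochondrially encoded subunits had a median of -1.05 (-0.70 after length removal, -0.68 without A159V IgG 5), and 4 of them fell. Under anti-PD1 their median was -0.45. Cytochrome b, mt-Cytb, was at 926, 916 and 481 CPM in A159V IgG and 3068, 2328 and 2496 CPM in WT IgG (-1.76, SE 0.26, adjusted p = 0.00064). The mt-Co1 transcript of complex IV was at 7648, 7605 and 4125 CPM against 18444, 16385 and 17128 CPM (-1.42, SE 0.25). A159V IgG 5 had the lowest value for both, as it had the lowest mitochondrial share of counts. Whether cell state or RNA quality underlies that share was not tested.

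DNA replication and mitosis genes had 12 of 45 higher and 2 lower (median 0.26, or 0.16 without WT IgG 2), and ribosome biogenesis genes 12 of 37 higher and 1 lower (median 0.28, with 0.19 without WT IgG 2 and 0.16 without WT IgG 4). Heatr1, a nucleolar factor of rRNA synthesis, was at 239, 232 and 227 CPM against 88.2, 126 and 133 CPM (1.01, SE 0.16, adjusted p = 0.001). Cytosolic heat shock proteins had 1 of 21 higher and 7 lower (median -0.31, or -0.56 without A159V IgG 1), led by the co-chaperone Dnajb1 at 122, 158 and 170 CPM against 472, 340 and 307 CPM (-1.31, SE 0.21). For Heatr1 and Dnajb1 alike the groups were apart. Tubulins had 2 of 14 higher, beside 7 under anti-PD1, and annexins 1 of 10 higher and 2 lower, led by Anxa1 (-1.02). For tubulins under IgG the share of increases was near the 15.6% over all genes. The tubulin median of 0.13 was negative with upper-quartile scaling, 0.01 without A159V IgG 5 and 0.26 without A159V IgG 2.

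A clone can differ from its parent line in whole stretches of a chromosome, and the fold changes were therefore read along the genome (build mm10). Chromosome 10 had 51 of 674 genes higher and 147 lower (7.57% and 21.8%, median -0.21; -0.17 under anti-PD1), and chromosome 13 had 65 of 537 higher and 103 lower (median -0.20; -0.13 under anti-PD1). Chromosome 4 had 208 of 896 higher (23.2%) and 74 lower (median 0.13; 0.18 under anti-PD1), though its median was -0.01 with upper-quartile scaling. Of 242 windows of 10 Mb with at least 15 genes tested, the highest median was 0.55, on chromosome 4 from 140000001 to 150000000. There 51 of 112 genes (45.5%) were higher and 5 lower, beside 42 and 9 under anti-PD1. Padi4, a peptidylarginine deiminase in that window, was at 195, 202 and 228 CPM in A159V IgG and 82.3, 101 and 77.2 CPM in WT IgG (1.26, SE 0.13, adjusted p = 7.99e-05), and Ube4b, a ubiquitin chain factor, rose by 1.01. Casp9 lies there too. Against its neighbors, Pdpn, the mucin-like podoplanin, was at 0.476, 0.384 and 0.213 CPM against 7.7, 3.73 and 2.91 CPM (-3.71, SE 0.57). Pdpn is also among the fibroblast markers summed above, which were lower in A159V IgG.

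The lowest median outside the mitochondrial genome was -0.65, on chromosome 13 from 110000001 to 120000000, where 18 of 37 genes (48.6%) were lower and 0 higher by edgeR (1 at an unadjusted p under 0.05, 0 by DESeq2, 0 by voom), beside 16 lower under anti-PD1. Plpp1, a lipid phosphatase, was at 17.6, 18.1 and 13.7 CPM against 39.9, 32.7 and 37.3 CPM (-1.16, SE 0.15, adjusted p = 0.000242). Mier3, a chromatin factor, was at 21.9, 20.9 and 12.9 CPM against 39.1, 44 and 41.9 CPM (-1.16, SE 0.18). Plk2, Slc38a9 and Ndufs4, given above, lie in the same window, so they are also counted here. A median of -0.56 was found on chromosome 13 from 20000001 to 30000000, which holds many histone genes, with 6 of 72 higher and 7 lower and a median of -0.04 under anti-PD1. Chromosome 5 from 10000001 to 20000000 also stood at -0.56, with 1 of 21 higher and 4 lower, and at -1.23 under anti-PD1, with 3 higher and 10 lower. Next after the chromosome 4 window came chromosome 2 from 80000001 to 90000000 (median 0.43, 12 of 36 higher and 1 lower, -0.14 under anti-PD1) and chromosome 14 from 120000001 to 130000000 (median 0.33, 4 of 19 higher, 0.17 under anti-PD1). Zdhhc5, a palmitoyltransferase, led the first of these (0.86), and Farp1, a Rac exchange factor, the second (0.88). Copy number was not measured, and a gain or loss of DNA cannot be told apart from regulation in these counts.

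**Figure D4:**
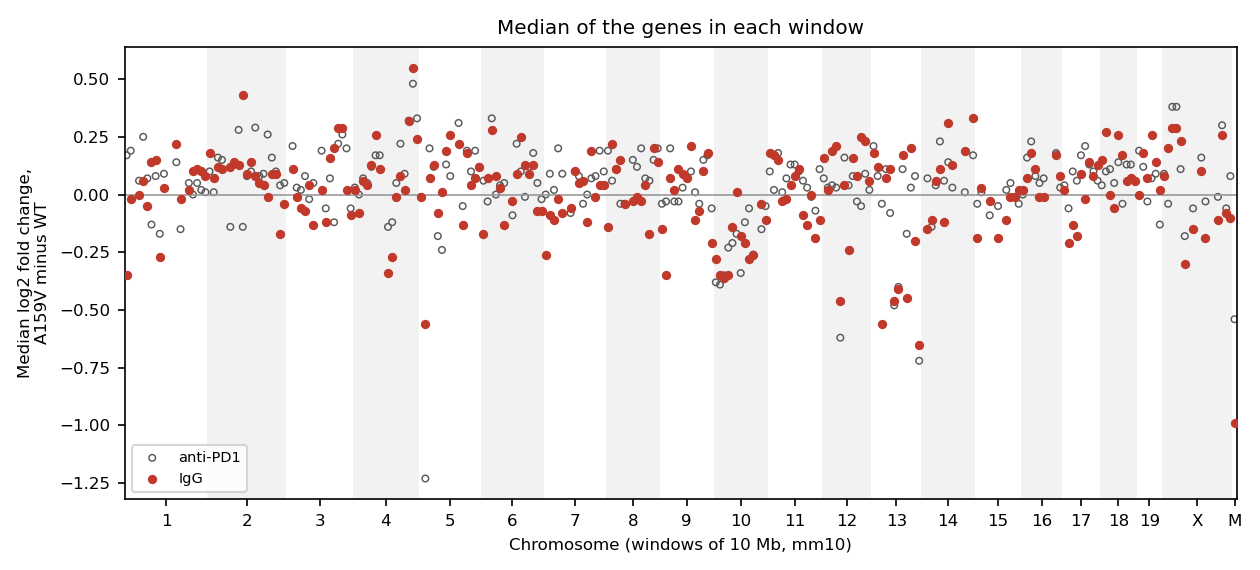
Median log2 fold change of A159V over WT in 10 Mb windows along the chromosomes under IgG and anti-PD1, each window with at least 15 genes tested. The window near the far end of chromosome 4 stands at 0.55 and that at the far end of chromosome 13 at -0.65 under IgG, with 0.48 and -0.72 under anti-PD1.

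Genes silent in 1 genotype were also sought. With at least 20 counts required in each tumor of the other group, 4 genes had 0 counts in the 3 A159V IgG tumors and none had 0 counts only in WT IgG. Itgb8, an integrin chain that activates TGF-beta, had 25, 26 and 149 counts in WT IgG, at least 24.0-fold lower in A159V IgG (9.79-fold without WT IgG 4), and Pet2, on chromosome X, had 65, 49 and 142 counts, at least 31.0-fold lower. Grem1 was also among them, with 275, 490 and 481 counts. In the A159V anti-PD1 tumors these 3 genes had at most 1 count in any library, against 19 to 654 counts in the WT anti-PD1 tumors.

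Placental and X-linked families were picked out after their values were seen. Of 7 prolactin family genes tested 3 rose, beside 6 under anti-PD1. Prl8a9 was at 2.33, 1.34 and 0.797 CPM in A159V IgG and 0.0546, 0.0612 and 0 CPM in WT IgG. Prl2a1 was at 1.11, 0.768 and 0.638 CPM against 0.0546, 0.122 and 0 CPM, and in both genes the WT tumors were at or below the detection floor. Of 5 Serpinb9 paralogs, relatives of a granzyme B inhibitor, 3 rose, as 3 did under anti-PD1, among them Serpinb9g at 5.18, 2.93 and 1.75 CPM against 0.601, 0.673 and 0.602 CPM. Of 14 reproductive homeobox genes named Rhox 5 rose and 2 fell. Members of these families are similar in sequence, and reads may have been assigned to the wrong copy. Xist, the RNA of the inactive X chromosome, was at 0.687, 0.576 and 0.425 CPM against 2.62, 1.35 and 4.67 CPM, and the 4 Y-linked genes listed had 0 counts in the IgG libraries.

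The genotype difference was also fitted in the anti-PD1 tumors, which share no sample with the IgG tumors. There 3075 genes (21.4%) were DEGs. In both treatments 1633 genes were DEGs in the same direction, which is 40.7% of the IgG list and 53.1% of the anti-PD1 list, and 8 were DEGs in opposite directions. Of the 4010 IgG DEGs, 3547 (88.5%) had the same sign under anti-PD1. By the test of the difference between the 2 genotype effects, 1 gene passed the DEG limits, Errfi1, an inhibitor of EGF receptor signaling. It was at 52.3, 58 and 48.6 CPM in A159V IgG and 44.4, 38.7 and 36.9 CPM in WT IgG (0.41, SE 0.12, adjusted p = 0.0251), without overlap, and fell under anti-PD1 (-0.98). Its IgG call was lost without A159V IgG 1 (0.42), A159V IgG 2 (0.34), WT IgG 2 (0.31) or WT IgG 4 (0.35). RLE or upper-quartile scaling also ended it, as did no filter and a filter of at least 10 counts in every sample. The 6 IgG samples alone and the pan-leukocyte covariate did so too.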

How the data were processed

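RNA was sequenced from tumor cells of 12 mice in 4 groups of 3. The authors aligned reads to mm10 with STAR and deposited raw read counts per gene; strand and the handling of reads in several genes are not given in the sources used here. Of 33219 features, 31980 had a GENCODE M21 symbol. Groups came from the labels. Genes passing filterByExpr (14340) were fitted over all 12 samples in edgeR 4.0.16 (R 4.3.3, limma 3.58.1) with TMM scaling and 1 term per group, which left 8 residual degrees of freedom, and tested by quasi-likelihood with Benjamini-Hochberg adjustment. DEGs were those below 0.05 after adjustment whose log2 fold change was beyond 0.3 either way. The test was checked on simulated counts. CPM (counts scaled to library totals) use TMM-scaled totals, and the floors of 3 counts use raw totals. Alternatives were DESeq2 1.42.0, limma voom, RLE and upper-quartile scaling, other filters and limits, IgG samples alone, a replicate block, an exon-length trend removed per library, a pan-leukocyte covariate and each IgG library left out. The fit without A159V IgG 5 and WT IgG 1 was chosen after seeing the data. Plots were drawn in matplotlib 3.10.9 and tables made with numpy 2.4.6 and pandas 2.3.3 (Python 3.11.15).

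Named genes were Rac1, the 12 per direction of smallest p among protein-coding DEGs with nonoverlapping groups, and from each list or window up to 4 DEGs of smallest p (for cell types, the most counted member and those at 0). The lists, 77 of pathways, families and quality and 15 of cell types, and their members were chosen with earlier results of these data known. Genes singled out as silent, the Prl, Serpinb9 and Rhox families, the split of Zfp genes by chromosome, Pdpn, the gene that passed the interaction test and the genes with opposite directions under anti-PD1 were chosen after their values were seen. Some genes and lists are not reported here.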

Additional observations from a re-analysis of the deposited data

Results flagged for a closer look

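The genotype difference in Errfi1 had opposite directions in the 2 treatments. Under anti-PD1 it was at 44.6, 47.4 and 47.5 CPM in A159V and 89, 87 and 98.3 CPM in WT, and the log2 fold change there minus that under IgG was -1.38 (SE 0.17), with an adjusted p of 0.0267 for the difference by edgeR.

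Of the 14340 genes tested, 148 had genotypes without overlap in both treatments and in opposite directions. How many would do so by chance was not tested. IgG DEGs made up 70 of the 148, and 7 of these were DEGs in both. Besides Errfi1 these were Itgb5 (log2 fold changes of 0.59 under IgG and -0.44 under anti-PD1), Plek (1.24 and -1.43), Mmp12 (2.61 and -2.26), Irf2bpl (0.48 and -0.71), Exosc8 (-0.50 and 0.48) and Gm17728 (-1.32 and 1.80). The interaction did not pass in any of these 6, with adjusted p of 0.0901 for Plek and Irf2bpl, 0.133 for Itgb5 and 0.135 for Mmp12, Exosc8 and Gm17728. Mmp12 was at 0.476, 0.816 and 0.478 CPM in A159V IgG and 0.164, 0.0612 and 0.0502 CPM in WT IgG, where each library held at most 3 counts. The IgG calls were also lost with 1 library left out. Without WT IgG 1 Itgb5 was at 0.43, Plek at 1.04, Irf2bpl at 0.31 and Gm17728 at -1.46. Without A159V IgG 2 Plek was at 1.16, Mmp12 at 2.30, Exosc8 at -0.47, Irf2bpl at 0.46 and Gm17728 at -1.08. Other libraries had the same effect on Plek (1.10 without A159V IgG 1), Exosc8 (-0.54 without A159V IgG 1) and Mmp12 (2.35 without WT IgG 2 and 2.30 without WT IgG 4). For Irf2bpl and Gm17728 it held for 5 of the 6 libraries.

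Among the genes of the lists above, Dusp4, a phosphatase of ERK, and F2r, the thrombin receptor, also had opposite directions without being DEGs under anti-PD1. Dusp4 had log2 fold changes of 1.22 and -0.51 and F2r of 0.97 and -0.39, with an adjusted p of 0.0901 for the interaction in both.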

How the results depend on the processing

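With 1 library left out, the 4010 DEGs ranged from 2578 to 4717, the 2231 higher genes from 1251 to 2589, the 1779 lower genes from 1136 to 2422 and the 1633 genes shared with anti-PD1 from 1174 to 1935. The 6 IgG samples alone gave 1399 DEGs (556 higher, 843 lower), and 23 of 182 genes followed across settings lost their calls. These include Rac2, Mrtfa, Cap1, Tyro3, Bmp1, Lamp1, Cd68, Gata2, Hoxb13, Cry1 and Mfng. With at least 10 counts in every sample 1219 were higher and 988 shared. Upper-quartile scaling gave 1337 higher. The pan-leukocyte covariate left 352 DEGs (125 higher, 227 lower, 2 shared), and 108 of the 182 genes followed lost their calls. An adjusted p under 0.01 gave 1776 (1003, 773, 693 shared) and an absolute log2 fold change over 1 gave 1649 (549, 1100, 755 shared). With both libraries that stand apart left out, a fit chosen after seeing the data, 2908 were lower and 2793 shared. Of 1445 medians of lists, chromosomes and windows compared, 1104 moved by under 1 SD between replicates and 337 by more. The other 4 were counted as reversed: basement membrane genes (0.10 with at least 10 counts, 0.23 with the covariate) and proteoglycans (0.02 and 0.19). Further sign changes, such as that of the TGF-beta list (-0.27 without WT IgG 1), are counted under the 1104 or the 337. With RLE or upper-quartile scaling 19 of the 75 lists with a median did not keep their sign. Rac1, not a DEG, turned to 0.03 with both libraries left out, 0.01 with the covariate and 0.01 with the replicate block. The cause of these shifts was not tested.

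The labels do not say whether replicate numbers shared by the IgG groups pair the samples, and the main fit did not pair them. Deviations of the samples numbered 1 correlated at 0.205 and of those numbered 2 at -0.015 across genes. No known pair was at hand for comparison, so these values cannot settle pairing. With the replicate block 3488 genes were higher, of 5867 DEGs. A 0 count allows up to 0.19 CPM, which limits statements on genes below that level.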
